A study of Mus musculus with 9 samples.

Results

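The genes described here are 8 genes of B cells and of the antibody-secreting plasma cells that B cells become: Ighm, Cd79a, Cd79b, Blnk, Cd22, Ms4a1, Pou2af1 and Mzb1. All probe sets that the array annotation gives to 1 of these genes alone were taken, which gave 20 of the 45101 probe sets on the array and 8 of the 18194 genes measured, and a gene's main value comes from whichever of its probe sets was brightest on average across the 9 arrays. Tumours were grown from 3 mouse mammary carcinoma lines that carry a luciferase reporter, 4T1/CMVLUC, 66cl4/CMVLUC and 67NR/CMVLUC, which come from 1 spontaneous tumour of a BALB/c mouse. 4T1 and 66cl4 spread to the lung and 67NR does not. Each of 3 female BALB/c mice per line, 7 to 9 weeks old with an intact immune system, received 1000000 viable cells in the fourth mammary gland on the right side. On day 15 the primary tumour was removed, the tumour part of its sections was cut out by laser capture, and its RNA was put on 1 array. The study asked about the epithelial to mesenchymal transition in metastasis, and the 3 lines are compared with each other here.

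B cells carry a receptor made of a membrane form of antibody and a pair of signalling chains. On contact with antigen the chains recruit kinases and an adaptor protein, while inhibitory co-receptors set the threshold of the response. An activated B cell can turn into a plasma cell, which switches off much of the receptor machinery and devotes its endoplasmic reticulum to the folding and secretion of antibody. A plasma cell therefore holds far more antibody mRNA than a resting B cell does. B cells and plasma cells are found in many mammary tumours, at the tumour margin, in lymphoid aggregates or scattered in the stroma. In bulk tissue of this kind, fewer cells of a type and less RNA per cell cannot be told apart.

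Values are log2 signals as deposited. The 9 arrays had medians between 5.51 and 5.58. As the file gives no detection call, the highest of 27 bacterial control probe sets on each array, 4.83 to 5.08, was taken as the background ceiling. A gene at or under it on all 3 arrays of a line is described as not above background there. The captured tissue carried epithelial markers of the lines to unequal extents. The keratin gene Krt8 was above background on all 9 arrays, with a mean of 13.48 for 4T1, 13.01 for 66cl4 and 6.74 for 67NR. The epithelial adhesion gene Epcam was above it on all 9, with means of 8.24, 7.03 and 7.17 in the same order. Krt18 was above background on 3 of 3 4T1, 3 of 3 66cl4 and 1 of 3 67NR arrays. Its means were 13.39, 5.47 and 4.77, so 66cl4 lay close to the background ceiling. The E-cadherin gene Cdh1 was above background on 3 of 3 4T1 arrays and 0 of 3 in each of 66cl4 and 67NR. Genes whose signal exceeded the 40th percentile on 3 or more arrays were tested, and limma calls were made at an adjusted p under 0.05.

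The 8 genes did not form 1 group in these tumours. Cd22 was highest in 67NR tumours and Blnk was lowest in 4T1 tumours, and in neither case did the mice of these lines overlap with those of the others. Mzb1 and Pou2af1 had their highest signals in 2 of the 3 4T1 tumours, while the remaining 4T1 tumour did not exceed background. Ighm peaked in a 4T1 tumour too, was bright in all 67NR tumours, and was low in the 66cl4 tumours and in that same remaining 4T1 tumour. Cd79a and Cd79b, the chains that every B cell needs for its receptor, lay between 4.49 and 6.74 on the 9 arrays and passed the test in no comparison. Ms4a1, a classical marker of mature B cells, was above background on 1 array of 9. The label of B and plasma cell genes thus covers genes with different patterns.

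**Figure D1:**
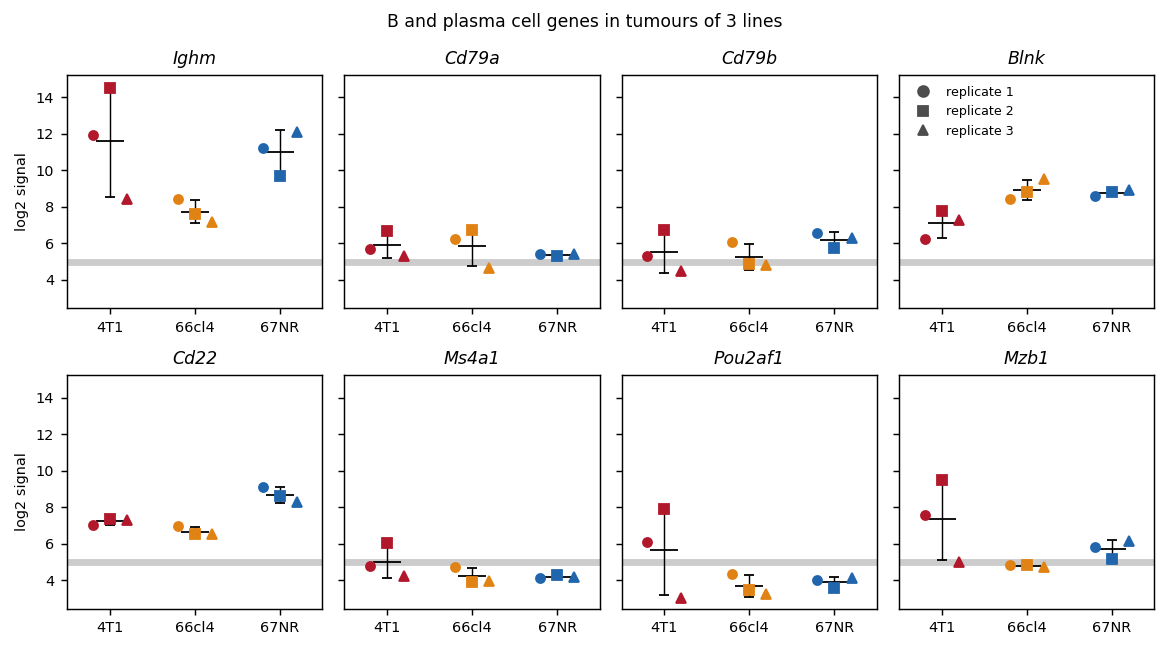
Log2 signal of the main probe set of each of the 8 genes (vertical axis) in tumours of 4T1, 66cl4 and 67NR (horizontal axis). Each symbol is 1 mouse, the bar is the mean with the standard deviation of 3 mice, and the grey band spans the background ceilings of the 9 arrays, 4.83 to 5.08; Ighm spans 8.42 to 14.49 within 4T1 tumours alone, while Cd22 lies higher in every 67NR tumour than in any tumour of the other lines.

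Ighm encodes the constant part of the IgM heavy chain, which serves both in the B cell receptor and as secreted antibody, and lies on chromosome 12. Its main probe set, 1427870_x_at, gave log2 signals of 11.95, 14.49 and 8.42 in the 4T1 tumours, 8.42, 7.60 and 7.20 in the 66cl4 tumours and 11.23, 9.67 and 12.10 in the 67NR tumours. Every array was above background. The 66cl4 tumours were low throughout and did not overlap with the 67NR tumours, whereas 4T1 replicate 3 was as low as 66cl4 replicate 1. The mean was 11.62 ± 3.05 in 4T1, 7.74 ± 0.62 in 66cl4 and 11.003 ± 1.23 in the 67NR tumours (SD, n = 3 each). Between 4T1 and 66cl4 tumours the log2 difference was 3.88 ± 1.25 (SE, limma adjusted p = 0.0314). That call ended when any single array of 66cl4, or replicate 1 or 2 of 4T1, was left out (adjusted p between 0.0517 and 0.0868), and the difference was 2.44 without 4T1 replicate 2 and 5.48 without 4T1 replicate 3. It also ended with the mean of all Ighm probe sets (1.90, adjusted p = 0.0531), with the arrays of these lines alone (0.0573) and with robust variances (0.0601). Between 66cl4 and 67NR tumours the difference was -3.26 ± 1.25 (adjusted p = 0.0678), and between 4T1 and 67NR tumours 0.62 ± 1.25 (adjusted p = 0.734), neither past the threshold. The 66cl4 against 67NR difference has the same size and passes when the 4T1 arrays are left out of the fit (adjusted p = 0.00323), or when only 4T1 replicate 2 (0.0192) or 3 (0.00892) is left out.

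The 11 probe sets annotated to Ighm alone did not tell the same story. Names ending in x_at or s_at mark probe sets whose probes may also bind related transcripts, and antibody genes have many relatives. Probe sets 1425247_a_at, 1427756_x_at, 1425324_x_at and 1427869_at followed the main one in 4T1 tumours, brightest in replicate 2 and dimmest in replicate 3. The clearest, 1425247_a_at, read 11.26, 13.87 and 6.87 in 4T1, 7.19, 5.91 and 5.17 in 66cl4 and 10.46, 8.88 and 11.28 in the 67NR tumours. Probe sets 1427351_s_at and 1427329_a_at went another way. On 1427351_s_at the signals were 7.11, 9.92 and 8.74 in 4T1, 10.04, 6.26 and 8.09 in 66cl4 and 11.14, 9.60 and 10.24 in the 67NR tumours. On 1427329_a_at they were 6.79, 8.83 and 7.59 in 4T1, 9.04, 5.79 and 7.75 in 66cl4 and 10.34, 9.31 and 9.83 in the 67NR tumours. On this pair 67NR tumours had the highest mean, and 4T1 replicate 1, bright on the main probe set, was the dimmest of the 4T1 tumours. The others were dim: 1452535_at lay at 5.28 to 6.59 over the 9 arrays, 1451949_at had 1 of 3 arrays above background in each line, and 1425385_a_at and 1426196_at had none and were not tested. Which transcripts each probe set reads was not tested.

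**Figure D2:**
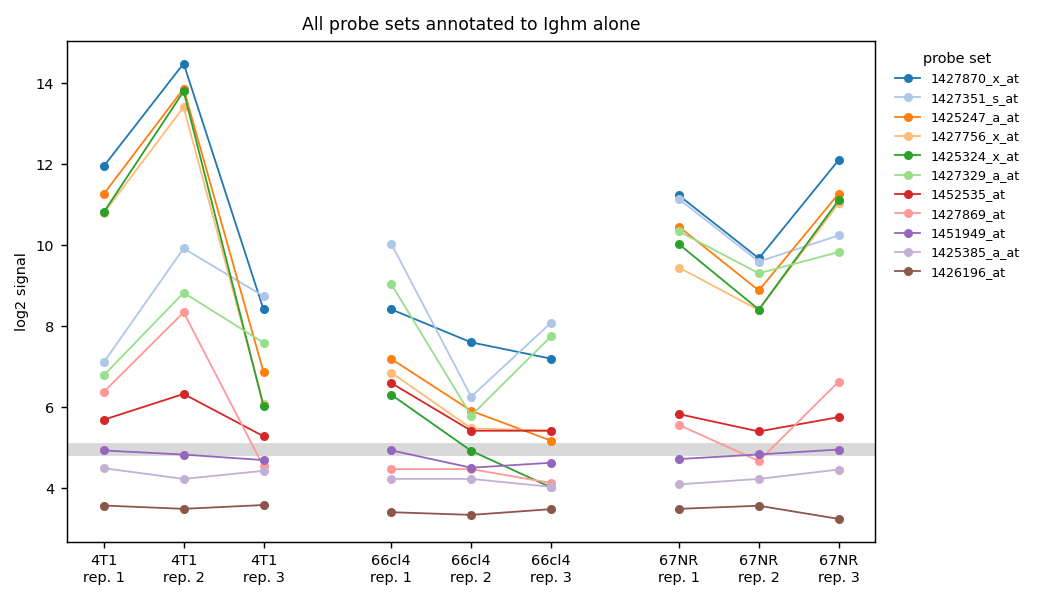
Log2 signal (vertical axis) of all 11 probe sets annotated to Ighm alone on each of the 9 arrays (horizontal axis, grouped as 4T1, 66cl4 and 67NR); lines join the 3 mice of a line and the grey band spans the background ceilings. The main probe set 1427870_x_at peaks at 14.49 in 4T1 replicate 2, whereas 1427351_s_at and 1427329_a_at peak in 67NR replicate 1 at 11.14 and 10.34.

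Tested probe set by probe set, 2 of the 9 tested Ighm probe sets were called between 66cl4 and 67NR tumours. They were 1425324_x_at, at -4.77 ± 1.58 (adjusted p = 0.0445), and 1427329_a_at, at -2.30 ± 0.74 (adjusted p = 0.0394). Between 4T1 and 66cl4 tumours 3 were called, namely 1427870_x_at, 1425247_a_at and 1425324_x_at, the last with 5.13 ± 1.58 (adjusted p = 0.0288). No Ighm probe set was called between 4T1 and 67NR tumours by limma, where the smallest adjusted p was 0.0503, for 1427329_a_at at -2.09 ± 0.74 (unadjusted p = 0.0179). Of the 15 tested probe sets of all 8 genes, 4 were called between 66cl4 and 67NR tumours (30.5% of all 23998 probe sets tested), 3 between 4T1 and 67NR tumours (35.6%) and 5 between 4T1 and 66cl4 tumours (36.2%). In each comparison the share of called probe sets was no larger than that over all probe sets.

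Cd79a and Cd79b encode the signalling chains that pair with membrane antibody, and lie on chromosomes 7 and 11. Cd79a gave 5.67, 6.69 and 5.31 in 4T1, 6.26, 6.74 and 4.63 in 66cl4 and 5.43, 5.29 and 5.43 in the 67NR tumours. The 67NR tumours were nearly equal, and the 66cl4 tumours spanned them, with replicate 3 under background. Its log2 differences were 0.50 ± 0.50 between 66cl4 and 67NR (adjusted p = 0.478), 0.51 ± 0.50 between 4T1 and 67NR (0.458) and 0.01 ± 0.50 between 4T1 and 66cl4 tumours (0.986, 95% interval -1.10 to 1.13). Without 66cl4 replicate 3 the first of these was 1.12 (adjusted p = 0.0384). Cd79b read 5.30, 6.74 and 4.49 in 4T1, 6.08, 4.86 and 4.83 in 66cl4 and 6.57, 5.74 and 6.29 in the 67NR tumours. It was above background in all 67NR tumours, in 2 of 3 4T1 and in 1 of 3 66cl4 tumours, and the groups overlapped. Cd79b differed by -0.94 ± 0.53 between 66cl4 and 67NR (adjusted p = 0.199), by -0.68 ± 0.53 between 4T1 and 67NR (0.345) and by 0.26 ± 0.53 between 4T1 and 66cl4 tumours (0.739). Without 4T1 replicate 2 the 4T1 against 67NR difference was -1.30 (adjusted p = 0.038). The paired chains of 1 receptor did not run in parallel here: in 66cl4 replicate 2, Cd79a had its highest signal of the 9 arrays and Cd79b was not above background.

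Blnk encodes the adaptor that links the activated receptor to downstream enzymes in B cells, and it is also expressed in macrophages. It gave 6.24, 7.78 and 7.28 in 4T1, 8.43, 8.83 and 9.53 in 66cl4 and 8.60, 8.80 and 8.95 in the 67NR tumours. All 4T1 tumours were below every tumour of the other lines, and 66cl4 and 67NR tumours overlapped. Means were 7.10 ± 0.79 in 4T1, 8.93 ± 0.55 in 66cl4 and 8.78 ± 0.17 in the 67NR tumours (SD, n = 3 each). Blnk was lower in 4T1 than in 67NR tumours (-1.69 ± 0.37, adjusted p = 0.00528) and than in 66cl4 tumours (-1.83 ± 0.37, adjusted p = 0.00334), in 3 of 3 tumours in both comparisons. Between 66cl4 and 67NR tumours it differed by 0.15 ± 0.37 (adjusted p = 0.792, 95% interval -0.69 to 0.98). The calls against both lines held when any single array was left out. The 4T1 against 67NR call ended with the array file number (-1.001, adjusted p = 0.283) or the hybridization controls (-0.50, adjusted p = 0.5) as a covariate. All 67NR arrays have higher file numbers than those of the other lines, so file order and line cannot be told apart fully. Macrophage markers moved in the same direction: 11 of 16 listed genes were lower and 0 higher in 4T1 than in the 67NR tumours. Over all genes tested, 20.5% were lower and 19.4% higher in that comparison. The part of macrophages in the Blnk result was not tested.

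Cd22 encodes an inhibitory co-receptor of B cells that binds sialic acid and dampens receptor signalling. Its main probe set, 1419768_at, gave 7.01, 7.37 and 7.29 in 4T1, 6.94, 6.52 and 6.52 in 66cl4 and 9.10, 8.62 and 8.26 in the 67NR tumours. Each 67NR tumour exceeded every tumour of the other lines, and all 9 values were above background. The means were 7.22 ± 0.19 in 4T1, 6.66 ± 0.24 in 66cl4 and 8.66 ± 0.42 in the 67NR tumours (SD, n = 3 each). Cd22 was lower than in 67NR tumours by -2.0002 ± 0.21 in 66cl4 (adjusted p = 9.24e-05) and by -1.44 ± 0.21 in 4T1 tumours (adjusted p = 0.000513). Between 4T1 and 66cl4 tumours it differed by 0.56 ± 0.21 (adjusted p = 0.0586), with no overlap of the mice, and this passed the threshold in a fit of the 6 arrays alone (0.0308). The second probe set, 1419769_at, read 4.79, 4.64 and 4.02 in 4T1, 4.09, 3.80 and 4.20 in 66cl4 and 6.70, 5.74 and 6.09 in the 67NR tumours. It was above background in 67NR tumours alone, at least 2.41-fold lower in 66cl4 (adjusted p = 0.00022) and at least 2.31-fold lower in 4T1 than in 67NR tumours (adjusted p = 0.000717). Both probe sets therefore placed 67NR highest. The calls for the main probe set against 67NR held in every alternative fit that was run.

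As Blnk and Cd22 carry the calls against 67NR tumours and moved unlike each other, the 250 bases before their transcription starts are shown, from RefSeq on build GRCm38.p6. The RefSeq table held promoters for 4 of the 8 genes. It was searched, from 250 bases before to 50 bases after the start and on both strands, for the octamer ATGCAAAT (reverse complement ATTTGCAT), which POU factors bind together with the Pou2af1 protein, and for CCCNNGGG, the core letters of the site of the B lineage factor Ebf1. Capitals mark these matches. The Blnk stretch is chr19:40994222-40994471 on the minus strand, and the Cd22 stretch is chr7:30879029-30879278 on the minus strand.
Blnk: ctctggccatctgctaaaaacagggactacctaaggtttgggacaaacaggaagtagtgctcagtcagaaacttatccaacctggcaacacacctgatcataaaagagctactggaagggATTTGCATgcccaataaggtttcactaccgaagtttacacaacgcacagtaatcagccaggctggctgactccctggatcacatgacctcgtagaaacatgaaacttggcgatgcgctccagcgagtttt
Cd22: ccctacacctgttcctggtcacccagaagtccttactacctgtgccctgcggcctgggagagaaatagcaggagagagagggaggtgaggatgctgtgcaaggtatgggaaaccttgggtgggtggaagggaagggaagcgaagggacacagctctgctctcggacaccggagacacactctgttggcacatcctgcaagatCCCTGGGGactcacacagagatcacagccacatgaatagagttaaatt
Blnk held 1 octamer, with its first base at -130 from the start, and Cd22 held 1 CCCNNGGG match, CCCTGGGG, with its first base at -48. The octamer was in 1.74% of all 32851 promoters in RefSeq's table, and CCCNNGGG was in 13.7%. In Cd79a and Pou2af1 these letters were not found in the window. A match is a description of the sequence and not a measured site.

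Ms4a1 encodes CD20, a membrane protein of mature B cells that plasma cells lose. Its brighter probe set gave 4.77, 6.04 and 4.25 in 4T1, 4.74, 3.92 and 3.97 in 66cl4 and 4.11, 4.29 and 4.16 in the 67NR tumours. Only 4T1 replicate 2 was above background, and the dimmer probe set was above background on no array. Ms4a1 did not pass the filter on low values. When every gene was tested, its adjusted p was 0.981 between 66cl4 and 67NR, 0.147 between 4T1 and 67NR and 0.155 between 4T1 and 66cl4 tumours.

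Pou2af1 encodes a co-activator that binds POU factors on antibody promoters and is needed for germinal centres. Its signals were 6.07, 7.88 and 3.02 in 4T1, 4.34, 3.48 and 3.23 in 66cl4 and 3.99, 3.58 and 4.13 in the 67NR tumours. It was above background in 4T1 replicates 1 and 2 and nowhere else, and 4T1 replicate 3 had the lowest signal of all 9 arrays. It too did not pass the filter. Set against the background ceiling, the 4T1 mean was at least 1.64-fold higher than in 67NR and at least 1.68-fold higher than in 66cl4 tumours. Tested with all genes, the adjusted p was 0.904 between 66cl4 and 67NR, 0.209 between 4T1 and 67NR and 0.153 between 4T1 and 66cl4 tumours.

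Mzb1 encodes a chaperone of the endoplasmic reticulum that assists IgM assembly and secretion in marginal zone B cells and plasma cells. It gave 7.56, 9.48 and 5.004 in 4T1, 4.82, 4.83 and 4.73 in 66cl4 and 5.84, 5.16 and 6.14 in the 67NR tumours. 4T1 replicate 3 was at background, as were all 66cl4 tumours, while the 67NR tumours were slightly above it. Mzb1 was at least 5.42-fold higher in 4T1 than in 66cl4 tumours (log2 difference 2.56 ± 0.86 as measured, adjusted p = 0.0377). That call ended without any single array other than 4T1 replicate 3 (adjusted p between 0.0516 and 0.088), and in a fit of the 6 arrays alone (0.0766). The difference was 1.49 without 4T1 replicate 2 and 3.73 without 4T1 replicate 3. Against 67NR tumours Mzb1 differed by 1.63 ± 0.86 in 4T1 (adjusted p = 0.165), or by 2.81 without 4T1 replicate 3 (adjusted p = 0.00232). Between 66cl4 and 67NR tumours the gap was at least 1.75-fold, with 66cl4 the dimmer line (log2 difference -0.92 ± 0.86 as measured, adjusted p = 0.442), and the mice did not overlap. As for Ighm, this difference passed the threshold when the 4T1 arrays were left out of the fit (adjusted p = 0.0133).

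Some other antibody genes were also uneven among the 4T1 tumours, and others were not. Jchain, the joining chain of IgM and IgA polymers, gave 10.49, 11.68 and 5.71 in 4T1, 7.20, 4.28 and 5.64 in 66cl4 and 9.43, 7.65 and 9.57 in the 67NR tumours. Igha, the IgA heavy chain, gave 12.14, 12.82 and 6.45 in 4T1, 5.99, 5.51 and 7.69 in 66cl4 and 10.29, 7.19 and 8.26 in the 67NR tumours. Both were bright in 4T1 replicates 1 and 2, and low in 4T1 replicate 3 and in the 66cl4 tumours. The 67NR tumours lay between these for Jchain and overlapped with 66cl4 tumours for Igha. The lambda light chain gene Iglv1 gave 9.12, 10.61 and 5.14 in 4T1, 5.65, 4.04 and 5.26 in 66cl4 and 7.19, 5.18 and 7.09 in the 67NR tumours. Iglv1 was higher in 4T1 than in 66cl4 tumours by 3.31 ± 1.18 (adjusted p = 0.0472), while Igha (4.08, adjusted p = 0.0525) and Jchain (3.59, adjusted p = 0.0591) missed the threshold. The highest and lowest 4T1 tumours lay 5.97 log2 units apart for Jchain, 6.38 for Igha and 5.47 for Iglv1. Ighg3, the IgG3 heavy chain, gave 6.36, 7.70 and 6.24 in 4T1 tumours, a span of 1.45. Jchain, Igha and Ighg3 were singled out here after their values were seen. Of all 57 probe sets of immunoglobulin genes or Jchain, 35 were highest in 4T1 replicate 2, and 37 had 4T1 replicate 3 as the lowest of the 4T1 tumours. Of the 28 that were above background on at least 3 arrays, 22 were highest in 4T1 replicate 2, and 24 had 4T1 replicate 3 as the lowest of the 4T1 tumours. Over all genes tested, 42.8% had 4T1 replicate 3 as the lowest 4T1 tumour. The limit of 3 arrays admits probe sets through the arrays where they are bright, which bears on these counts. Among the 4T1 tumours 17 of the 57 probe sets spanned over 4 log2 units and 23 under 1, and of the 28 it was 15 and 2. Leaving the Ighm probe sets out of the 28 also drops 1427351_s_at and 1427329_a_at, which were brightest in 67NR replicate 1. Of the rest, 17 of 19 were highest in 4T1 replicate 2, and 17 of 19 had 4T1 replicate 3 as the lowest of the 4T1 tumours. Many of these probe sets share sequence and do not count as independent readings.

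**Figure D3:**
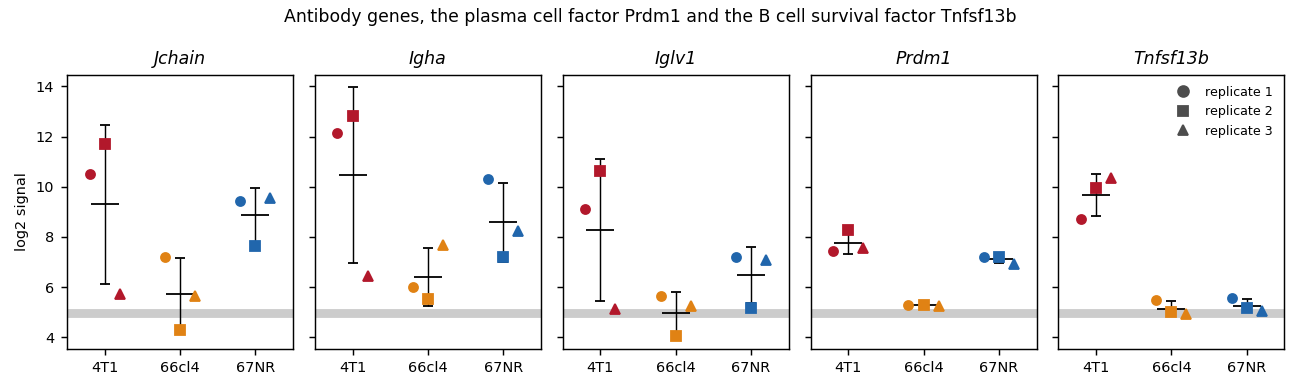
Log2 signal (vertical axis) of 3 antibody genes, of Prdm1, a transcription factor of plasma cells, and of Tnfsf13b, encoding the B cell survival factor BAFF, in tumours of 4T1, 66cl4 and 67NR (horizontal axis). Symbols are single mice, the bar is the mean with the standard deviation of 3 mice, and the grey band spans the background ceilings; 4T1 replicate 3 is low for Jchain, at 5.71, but highest for Tnfsf13b, at 10.36.

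The spread between mice of 1 line was large for several of the genes. As the genes were chosen with earlier results of these data known, the ranks and counts here describe the spread and do not test it. Within 4T1 tumours the highest and the lowest mouse lay 6.07 log2 units apart for Ighm, the rank 4 of 13410 genes tested, and 4.48 apart for Mzb1, the rank 9. The median gene spanned 0.34. Cd79b spanned 2.25, Blnk 1.54, Cd79a 1.38 and Cd22 0.36 in the same tumours, and the untested Pou2af1 spanned 4.86. Within 67NR tumours Ighm spanned 2.43, the rank 10, and within 66cl4 tumours Cd79a spanned 2.10, the rank 53. 4T1 replicate 2 was the highest 4T1 tumour for 8 of 8 genes, against 29.2% of all genes tested. 4T1 replicate 3 was the lowest for 6 of 8, against 42.8% of all genes tested. The 8 include Ms4a1 and Pou2af1, which did not pass the filter that those shares rest on. Blnk and Cd22 were the exceptions to replicate 3, lowest in 4T1 replicate 1.

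Counted together, 6 of the 8 genes passed the filter, which favours genes that are bright in some group. Between 66cl4 and 67NR tumours 1 of these 6 was called, Cd22, lower in 66cl4. Of all 13410 genes tested 36.1% were called there, 20.0% higher and 16.0% lower in 66cl4. Between 4T1 and 67NR tumours 2 of 6 were called, Blnk and Cd22, both lower in 4T1. Of all genes 39.9% were called there, 19.4% higher and 20.5% lower in 4T1. Between 4T1 and 66cl4 tumours 3 of 6 were called, Ighm and Mzb1 higher and Blnk lower in 4T1. Of all genes 41.3% were called there, 17.9% higher and 23.4% lower in 4T1. With 6 genes these counts do not set the group apart from all genes. The median log2 difference of the 6 was -0.93, -0.09 and 0.41 in the same order of comparisons, where the medians over all genes were 0.01, -0.03 and -0.03. Values of the lines did not overlap for 3 of 6 genes between 66cl4 and 67NR (52.5% of all genes), for 2 of 6 between 4T1 and 67NR (49.7%) and for 3 of 6 between 4T1 and 66cl4 tumours (50.9%). A moderated F-test over the 3 lines called Ighm (adjusted p = 0.0444), Blnk (0.00349) and Cd22 (0.000101), where 56.6% of all genes were called, and did not call Mzb1 (0.0682), Cd79b (0.298) or Cd79a (0.588). The F-test no longer called Ighm without the filter, with the mean of all probe sets, with the replicate block, with the hybridization controls as a covariate, with robust variances, or when 4T1 replicate 1, any single 66cl4 array, or 67NR replicate 1 or 3 was left out. Each pair of comparisons shares the arrays of 1 line.

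**Figure D4:**
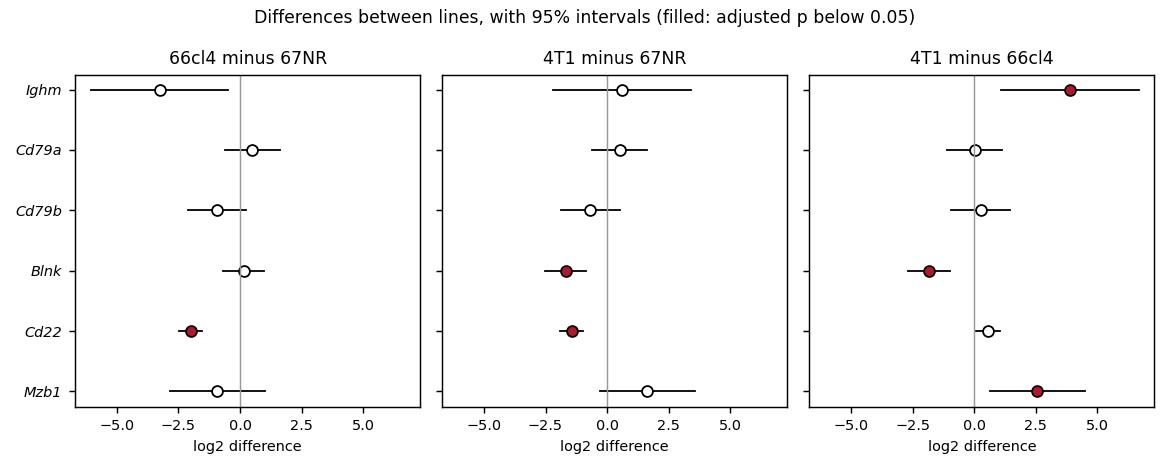
Log2 difference between lines (horizontal axis) with its 95% interval from limma for the 6 tested genes (vertical axis), in 1 panel for each of the 3 comparisons. Filled points have an adjusted p under 0.05; Cd22 is filled in both comparisons with 67NR, Blnk in both with 4T1, and the intervals of Ighm, such as 1.08 to 6.67 for 4T1 minus 66cl4, are the widest of the 6 genes.

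For the genes called in some comparison, the 5 genes most like each over the 9 arrays were taken by Pearson's r of log2 signals, as a description. The 9 arrays come from 3 lines, so such values mostly reflect differences between lines and a few bright arrays. For Ighm they were Aimp1 (r = 0.975), Chchd6 (0.966), the kappa chain gene Igkv8-30 (0.964), Jchain (0.958) and Tpst1 (0.945). Aimp1 nevertheless ranged only between 9.91 and 10.11, so likeness in order is not likeness in size. For Mzb1 they were Itgae (0.963), Iglv1 (0.96), Hsd11b2 (0.959), Sec13 (0.953) and Ext1 (0.951). For Blnk they were the lysosomal hexosaminidase gene Hexa (0.984), Tspan6 (0.983), Ebf1 (0.978), Tcn2 (0.967) and Dse (0.966). For Cd22 they were Ptprm (0.985), Ppp1r16b (0.982), Dchs1 (0.98), Shank3 (0.979) and H2-M9 (0.979). No gene was in more than 1 of these 4 lists.

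Other B lineage genes were read from lists. Of 17 tested genes of the B cell surface and receptor signalling, 1 was higher and 3 lower in 66cl4 than in 67NR tumours (median -0.27), 4 higher and 6 lower in 4T1 than in 67NR tumours (median -0.19), and 4 higher and 5 lower in 4T1 than in 66cl4 tumours (median -0.23). The shares changed over all genes tested were 36.1%, 39.9% and 41.3% in the same order of comparisons. Bank1, a B cell scaffold protein, was lowest in 4T1 tumours, as Blnk was. It was lower in 4T1 by -2.38 ± 0.17 against 67NR and by -2.04 ± 0.17 against 66cl4 tumours. Its 4T1 signals were 5.35, 4.77 and 4.90, above background in replicate 1 alone, the 4T1 tumour where Blnk was lowest. H2-DMb2 and Ciita, a chain that loads class II molecules and the master activator of class II genes, went the other way between these lines. H2-DMb2 was higher in 4T1 tumours by 2.59 ± 0.26 against 67NR and 3.65 ± 0.26 against 66cl4, and Ciita by 1.16 ± 0.21 and 2.07 ± 0.21. These genes also act in macrophages and dendritic cells. The tetraspanin gene Cd37 was higher in 66cl4 than in 67NR tumours (1.81 ± 0.16) and lower in 4T1 than in either. Of the 24 genes of this list that were measured, 12 were above background on all 9 arrays, among them Cd72, Cd180, Fcrl1 and Vpreb3. A further 7 were above it on some arrays, and 5 (Cr2, Fcer2a, Fcmr, Cxcr5 and Fcrla) on none. Fcrl1, at 5.07 to 5.49, and Vpreb3, at 5.19 to 5.70, lay close to the background ceilings and were called in no comparison.

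Of 12 tested B lineage transcription factors, 3 fell and 0 rose in 66cl4 against 67NR tumours, 3 lower and 0 higher in 4T1 than in the 67NR tumours, and 3 higher and 1 lower in 4T1 than in 66cl4 tumours. Over all genes 16.0% were lower and 20.0% higher in the first comparison, 20.5% lower and 19.4% higher in the second, and 17.9% higher and 23.4% lower in the third. Pax5, the factor that keeps B cell identity, lay at 4.72 to 5.25 on the 9 arrays, around the background ceiling, and was called in no comparison. It was singled out after its values were seen. Ebf1, a factor of B cells that fat and stromal cells also express, was lower in 4T1 by -1.89 ± 0.35 against 67NR (adjusted p = 0.0019) and by -1.93 ± 0.35 against 66cl4 tumours (adjusted p = 0.00164). Irf8, a factor of B cells, macrophages and dendritic cells, was lower in 66cl4 than in 67NR tumours (-0.70 ± 0.15) and higher in 4T1 than in 66cl4 tumours (1.06 ± 0.15).

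Some plasma cell and secretion genes were higher in 4T1 tumours and others were not. Irf4 and Xbp1 were called in no comparison, and Tnfrsf17 was above background on no array. These genes were singled out after their values were seen. Of 16 tested genes of this list, 4 rose and 1 fell in 4T1 against 67NR tumours (median 0.38), where 19.4% of all genes were higher and 20.5% lower. Between 4T1 and 66cl4 tumours 6 were higher and 0 lower in 4T1 (median 0.64), where 17.9% of all genes were higher. Between 66cl4 and 67NR tumours 1 was higher and 2 lower (median -0.20), where 20.0% of all genes were higher and 16.0% lower. Prdm1, which drives the plasma cell programme, gave 7.46, 8.29 and 7.54 in 4T1, 5.29, 5.28 and 5.24 in 66cl4 and 7.18, 7.20 and 6.93 in the 67NR tumours. It varied less among the 4T1 mice (SD 0.46) than Jchain (3.16), Igha (3.50) or Iglv1 (2.83), but was also highest in replicate 2. Its SD was 0.02 in 66cl4 tumours, where it lay close to the background ceilings, and 0.15 in 67NR tumours. Prdm1 was higher in 4T1 than in 66cl4 tumours by 2.49 ± 0.20 and than in 67NR tumours by 0.66 ± 0.20 (adjusted p = 0.024). Ell2, an elongation factor that favours secreted antibody mRNA, was higher in 4T1 by 1.17 ± 0.15 against 67NR and 1.41 ± 0.15 against 66cl4 tumours. Sdc1, encoding the plasma cell marker syndecan that epithelial cells carry too, was higher by 0.91 ± 0.18 and 1.07 ± 0.18. Sec11c, a signal peptidase subunit, rose by 1.43 ± 0.20 and 0.69 ± 0.20. It was also higher in 66cl4 than in 67NR tumours (0.74 ± 0.20, limma adjusted p = 0.0155). Its highest signal, 10.89, was in 4T1 replicate 3, the lowest 4T1 tumour for Jchain, Igha and Iglv1. Fkbp11, a folding enzyme, was lower than in 67NR tumours in both 66cl4 (-2.0008 ± 0.31) and 4T1 (-0.95 ± 0.31).

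Genes of signals that attract B cells or keep them alive included some with large differences between lines. Tnfsf13b gave 8.73, 9.94 and 10.36 in 4T1, 5.49, 5.01 and 4.92 in 66cl4 and 5.55, 5.17 and 5.07 in the 67NR tumours. All 4T1 tumours were far above the others, by 4.41 ± 0.36 against 67NR and 4.54 ± 0.36 against 66cl4 tumours. The 4T1 tumour with the highest Tnfsf13b, replicate 3, was the one with the lowest Ighm, Mzb1 and Pou2af1. Cxcl12, a chemokine that holds plasma cells and precursors in bone marrow, gave 6.73, 8.19 and 7.15 in 4T1, 11.74, 11.53 and 12.16 in 66cl4 and 9.89, 10.01 and 10.11 in the 67NR tumours. It was higher in 66cl4 than in 67NR tumours (1.81 ± 0.32) and lower in 4T1 than in 67NR (-2.65 ± 0.32) and 66cl4 tumours (-4.46 ± 0.32). Il6, a growth factor for plasma cells, was lower in 4T1 than in 67NR tumours (-1.26 ± 0.32). It was not above background in 66cl4 tumours, and was at least 4.47-fold lower there than in 67NR tumours (log2 difference -3.43 ± 0.32 as measured, adjusted p = 4.52e-05). Cxcl13, the chemokine of B cell follicles, ranged between 5.91 and 7.15 and was called in no comparison. Over the list of 7 tested genes, 1 was higher and 1 lower in 66cl4 than in 67NR, 1 higher and 2 lower in 4T1 than in 67NR, and 2 higher and 1 lower in 4T1 than in 66cl4 tumours. Over all genes 20.0% were higher and 16.0% lower in the first comparison. The shares were 19.4% and 20.5% in the second, and 17.9% and 23.4% in the third.

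**Figure D5:**
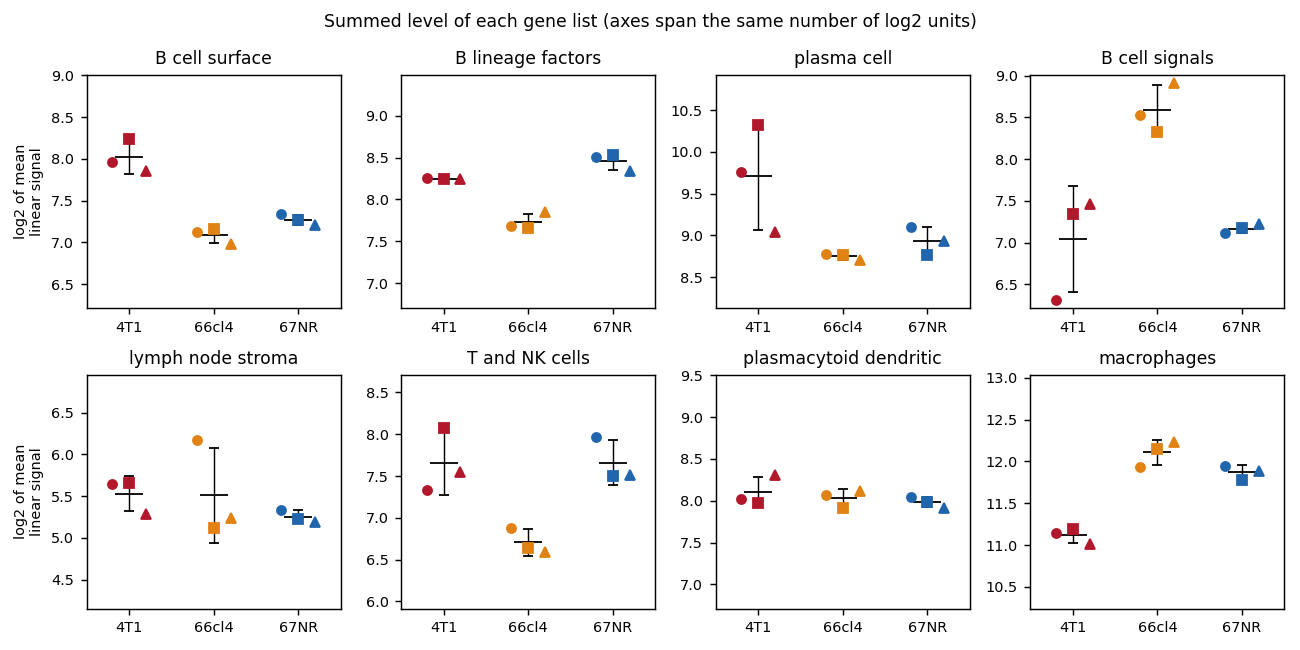
Level of each of 8 gene lists (vertical axis, log2 of the mean linear signal over the genes measured) in tumours of 4T1, 66cl4 and 67NR (horizontal axis). Symbols are single mice, numbered by symbol as in the other plots, with circles for replicate 1, squares for 2 and triangles for 3, and the bar is the mean with the standard deviation; macrophage genes lie at 11.01 to 11.19 in 4T1, below 11.94 to 12.24 in 66cl4 and 11.78 to 11.94 in 67NR tumours.

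Markers of other cells that the captured tissue could hold are given beside these results. The level of 16 macrophage and monocyte genes was 11.01 to 11.19 in 4T1, 11.94 to 12.24 in 66cl4 and 11.78 to 11.94 in 67NR tumours. Of the 16, 0 were higher and 12 lower in 4T1 than in 66cl4 tumours, where 17.9% of all genes were higher and 23.4% lower. In 66cl4 against 67NR tumours 5 were higher and 1 lower, where 20.0% of all genes were higher and 16.0% lower. Among the 16 genes Csf1r, the receptor for the macrophage growth factor, was lower in 4T1 than in 67NR tumours by -1.25 ± 0.17. The level of 15 T and NK cell genes was 7.33 to 8.07 in 4T1, 6.59 to 6.88 in 66cl4 and 7.50 to 7.97 in 67NR tumours. Of the 14 tested, 13 fell and 0 rose in 66cl4 against 67NR tumours, where 16.0% of all genes were lower and 20.0% higher. Of the 8 genes, Ighm, Mzb1, Cd79b, Pou2af1 and Cd22 had their lowest means in 66cl4 tumours, but only Cd22 was called between 66cl4 and 67NR tumours. Mzb1 and Pou2af1 were not above background in 66cl4 tumours, and Pou2af1 was not above it in 67NR tumours either. Cd79a and Ms4a1 had theirs in 67NR tumours, where Ms4a1 was not above background. Blnk had its lowest mean in 4T1 and its highest in 66cl4 tumours. Plasmacytoid dendritic cell genes lay at 7.97 to 8.31 in 4T1, 7.91 to 8.11 in 66cl4 and 7.92 to 8.05 in 67NR tumours. Of these, 3 of 10 tested were lower and 1 higher in 4T1 than in 67NR tumours, where 20.5% of all genes were lower and 19.4% higher. Lymph node stroma and high endothelial venule genes lay at 5.29 to 5.66 in 4T1, 5.12 to 6.17 in 66cl4 and 5.19 to 5.34 in 67NR tumours. Of the 12 measured, 6 were above background on no array, among them the venule genes Madcam1 and Chst4, and 4 were tested. The part of these cells in the results was not tested.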

How the data were processed

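Per the labels, 9 tumours (3 mice for each of 3 lines) were hybridised to Affymetrix mouse arrays, 1 array per mouse. The authors deposited log2 signals for 45101 probe sets; the method of summary and normalization is unknown here (not given in the sources). Annotation gave 34958 probe sets to 1 gene, 932 to several (left out, including 4 with Ighm) and 9211 were unnamed here; symbols were updated through RefSeq (34754 matched). Arrays have no read depth, and 3 per line limits the precision.

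All 9 arrays were fitted with limma 3.58.1 in R 4.3.3 (lmFit, eBayes, line means without covariate, 6 residual and 3.63 prior degrees of freedom), two-sided, with Benjamini-Hochberg adjustment over 13410 genes tested (above the 40th percentile on at least 3 arrays) or 23998 probe sets. The code was tested on simulated data. Bounds ("at least") set the brighter line's mean against the background ceiling of the dimmer one and do not include the spread between mice. Differences are log2 with the standard error of the fit. An exact permutation test of 3 against 3 cannot give a p below 0.1.

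Besides the 8 genes, up to 4 genes with the smallest p per list and comparison and the 5 most alike genes are named; Krt8, Krt18, Cdh1, Epcam and genes cited only for their range or background were chosen after their values were seen. Members and lists were chosen with earlier results of these data known. Replicate numbers did not pair the tumours: same-numbered tumours of different lines correlated at -0.115 to 0.159 after centring, and 2 of 9 pairs exceeded 0.1. Alternatives were other normalization, filters, probe set summaries, samples, covariates, a replicate block, robust variances and each array left out.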

Additional observations from a re-analysis of the deposited data

How the results depend on the processing

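The calls of Cd22 in 66cl4 and 4T1 against 67NR tumours and of Blnk in 4T1 against 66cl4 tumours kept direction and threshold under every alternative run. The number of the 6 tested genes called between 66cl4 and 67NR tumours was 1 in the main analysis and 3 with the 6 arrays of these lines alone (Ighm, Mzb1 and Cd22), and 1 to 2 when single arrays were left out. Between 4T1 and 67NR tumours it was 2, but 1 (Cd22) with the array file number and 1 with the hybridization controls as a covariate, and 2 to 3 with single arrays left out; over all genes those covariates gave 2661 and 2151 calls against 5348. Between 4T1 and 66cl4 tumours it was 3 (Ighm, Mzb1 and Blnk), and 1 to 3 with single arrays left out. It was 2 with the 6 arrays of these lines alone (Blnk and Cd22). The number was also 2 with the mean of all probe sets (Mzb1 and Blnk) and with a filter at the 60th percentile (Ighm and Blnk). For the F-test over the lines it was 3, and 2 to 4 with single arrays left out. With a filter at the 60th percentile Mzb1 was not tested.

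Of single probe sets, 4 were called between 66cl4 and 67NR tumours, but 2 without a filter, 8 with the 6 arrays alone, 2 with the array file number, 2 with the hybridization controls, 2 with robust variances, and 2 to 7 with single arrays left out. Between 4T1 and 67NR tumours 3 were called, but 1 with the array file number, and 3 to 5 with single arrays left out. Between 4T1 and 66cl4 tumours 5 were called, but 2 with the 6 arrays alone, 3 with the hybridization controls, 2 with robust variances, and 1 to 7 with single arrays left out. As the replicate numbers were not treated as pairs, the replicate block is given once: it changed none of the calls of the 6 genes between pairs of lines, ended the call of Ighm in the F-test, and left 2 single probe sets between 66cl4 and 67NR tumours.

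Only differences that missed the threshold turned direction. Cd79a between 4T1 and 66cl4 tumours was -0.022 with quantile normalization and -0.10 with the hybridization controls, and -0.61 to 0.44 with single arrays left out. Ighm between 4T1 and 67NR tumours was -0.073 with the mean of its probe sets, and -0.82 to 2.22 with single arrays left out. Mzb1 between 66cl4 and 67NR tumours was 0.60 with the array file number. With single arrays left out, Cd79b between 4T1 and 66cl4 ranged over -0.36 to 0.77 and Blnk between 66cl4 and 67NR over -0.15 to 0.40. The causes were not tested. Signals of Ms4a1 and Pou2af1 in 66cl4 and 67NR tumours and of Mzb1 in 66cl4 tumours lie at background, where these arrays give bounds only.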

Other observations

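The kappa chain gene Igkv6-14 was brighter in 4T1 replicates 1 and 2 than on any other array, with 11.22 and 12.18 against 3.87 in 4T1 replicate 3, 3.50 to 4.31 in 66cl4 and 3.32 to 5.10 in 67NR tumours. It was above background in 3 tumours, the third being 67NR replicate 3. Hsd11b2, an enzyme gene among those most like Mzb1, gave 6.67, 7.75 and 4.94 in 4T1 tumours and 4.85 to 5.03 in the other tumours.

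Glycam1, a mucin of high endothelial venules and of milk, was at 8.78 in 66cl4 replicate 1 and at 3.50 to 4.07 on the other 8 arrays. The same tumour had the highest 66cl4 signal for 5 of the 8 B and plasma cell genes, against 32.7% of all genes tested. Of these 5, Ms4a1 and Pou2af1 were not above background in that tumour. It was also the highest 66cl4 tumour, at 10.04, for the Ighm probe set 1427351_s_at. Madcam1 and Chst4 were not above background there. These genes were chosen after their values were seen, and no test was made.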
